A study of Mus musculus with 81 samples.

Results

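The 46 mitosis and spindle genes described here were taken by gene symbol, from a list of genes with known roles in cell division, out of 22869 symbols in the deposited table; each was represented by its transcript of highest mean. They were followed over all 81 single cells of the series. The cells came from wild-type CD1 mouse pancreata at embryonic day 13.5 that had been dissociated with trypsin. Each cell was captured on a microfluidic device, its mRNA was amplified as full-length cDNA, and the library was read in 2 lanes. The labels give 1 group and name no animals, so the 81 cells count as 1 sample. No test was made, and every SD is a spread over cells. Values are RPKM, reads per kilobase of transcript scaled to the reads mapped in that cell. A gene was counted as present in a cell at 10 RPKM or more.

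Progress through mitosis is driven by cyclin-dependent kinase 1, which is activated by cyclins A and B and switched off when the anaphase-promoting complex marks the cyclins for destruction. Many of the transcripts involved are periodic: those of Top2a and Ccna2 are known to build up during S and G2 phase, and those of Cdc20, Plk1 and the B-type cyclins to reach their peak in G2 and M phase. The embryonic pancreas grows by division of both its epithelial progenitors and the mesenchyme around them.

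A pair of short DNA elements recurs in promoters of such genes: the cell cycle genes homology region, bound by the DREAM and MuvB complexes, and the CCAAT box, bound by NF-Y. RefSeq promoter windows (GRCm38.p6, 250 bases before to 50 bases after the start) were found for 40 of the 46 genes. The first element, searched as TTTGAA or TTCGAA on both strands, was in 29 of the 40 (72.5%), against 21.7% of the 27025 genes with a window. The second, searched as CCAAT on both strands, was in 30 of the 40 (75%), against 41.1%. Both were in 26 of the 40 (65%), against 8.61% of all genes. Matches to the 2 motifs can share at most 1 letter, and a match is a description of letters, not a site of binding. The windows of 5 genes that the results below turn on are shown because they hold different arrangements of these elements; capitals mark the matches, also where they lie on the opposite strand.
Top2a (chr11:99024140-99024439, minus strand): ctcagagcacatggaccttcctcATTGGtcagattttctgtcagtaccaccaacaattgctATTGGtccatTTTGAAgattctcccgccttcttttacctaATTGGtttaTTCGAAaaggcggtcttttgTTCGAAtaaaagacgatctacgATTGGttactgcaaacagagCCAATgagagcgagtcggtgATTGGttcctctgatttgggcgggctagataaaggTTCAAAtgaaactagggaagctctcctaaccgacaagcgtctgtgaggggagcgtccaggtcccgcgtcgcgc
Cdc20 (chr4:118437294-118437593, minus strand): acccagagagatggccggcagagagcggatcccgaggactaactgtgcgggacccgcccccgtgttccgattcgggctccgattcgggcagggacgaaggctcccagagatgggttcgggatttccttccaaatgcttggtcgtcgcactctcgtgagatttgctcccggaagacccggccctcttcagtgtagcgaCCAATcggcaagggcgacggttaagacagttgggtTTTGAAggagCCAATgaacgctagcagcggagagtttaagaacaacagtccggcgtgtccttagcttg
Ccnb1 (chr13:100786437-100786736, minus strand): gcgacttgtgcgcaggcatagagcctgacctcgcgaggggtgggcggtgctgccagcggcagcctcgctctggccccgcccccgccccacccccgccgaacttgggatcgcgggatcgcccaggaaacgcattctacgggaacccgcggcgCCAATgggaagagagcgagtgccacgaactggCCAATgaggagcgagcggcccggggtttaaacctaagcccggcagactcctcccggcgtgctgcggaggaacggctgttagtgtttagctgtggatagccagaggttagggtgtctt
Plk1 (chr7:122159185-122159484, plus strand): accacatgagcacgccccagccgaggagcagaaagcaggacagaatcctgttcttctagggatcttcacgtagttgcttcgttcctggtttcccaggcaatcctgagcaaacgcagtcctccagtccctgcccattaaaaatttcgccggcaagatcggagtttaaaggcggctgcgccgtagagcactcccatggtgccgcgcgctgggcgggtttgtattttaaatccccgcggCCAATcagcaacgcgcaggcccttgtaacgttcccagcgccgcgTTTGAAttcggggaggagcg
Cks1b (chr3:89418242-89418541, minus strand): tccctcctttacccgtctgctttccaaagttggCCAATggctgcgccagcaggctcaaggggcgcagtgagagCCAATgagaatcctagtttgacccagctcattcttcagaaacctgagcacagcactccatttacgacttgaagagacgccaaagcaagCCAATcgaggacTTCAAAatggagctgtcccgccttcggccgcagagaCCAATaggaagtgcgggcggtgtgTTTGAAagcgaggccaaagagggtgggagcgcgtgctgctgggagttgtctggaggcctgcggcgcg

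The Top2a window held 4 matches to the first element and 6 CCAAT boxes. In Cdc20 the first element began 18 bases before the start, between 2 CCAAT boxes, and in Plk1 it lay after the start. Ccnb1, although its transcript was among those that followed the other genes most closely, held 2 CCAAT boxes and no match to the first element in this window. Cks1b, one of the genes that followed the rest least, held 2 matches to the first element and 4 CCAAT boxes.

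Depth per cell was estimated from what 1 read adds to a value; it had a median of 3.52M reads and was at least 1.66M in 77 cells. A single read on a 1 kb transcript was worth 50.5 RPKM in C3, 13.8 in C61, 5.09 in C94 and 2.39 in C43, the 4 shallow cells, so presence there can rest on few reads. Reads of some genes could belong to another gene, since the use of strand in counting is not given in the sources used here. Of the 50-base windows of the transcript, 42.1% of Ccnb1 occur elsewhere, most in a Ccnb1 pseudogene, as do 29.7% of Cks2, 11.6% of Cdc20 and 10.9% of Plk1. Exons of Kif20a overlap those of Cdc23 (34.6% of bases), and exons of Prc1 those of Rccd1 (26.9%). Exons of Ccna2 overlap those of Exosc9 (17.2%), and exons of Kif4 those of Pdzd11 (16.7%). Plk1, Nde1 and Cdc20 have smaller overlaps. Across the 81 cells the level of Kif20a followed that of Cdc23 with a Spearman rho of 0.85, and that of Ccna2 followed Exosc9 with a rho of 0.74. The rho was -0.11 for Prc1 with Rccd1 and 0.11 for Kif4 with Pdzd11. Against the mean of the members other than Ccna2, the rho was 0.63 for Ccna2 and 0.49 for Exosc9. Against the mean of those other than Kif20a, it was 0.49 for Kif20a and 0.38 for Cdc23. How much of any of these rests on shared reads was not tested.

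Most values were either under 1 RPKM or at 10 RPKM and above. Of the 3726 values (46 genes in 81 cells), 26.2% were listed at 0, 21.7% lay above 0 and below 1 RPKM, 12% between 1 and 10, 28.2% between 10 and 100, and 11.9% at 100 RPKM or more. The heat map of all values shows cells in which most of the genes are present and cells in which few are.

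**Figure D1:**
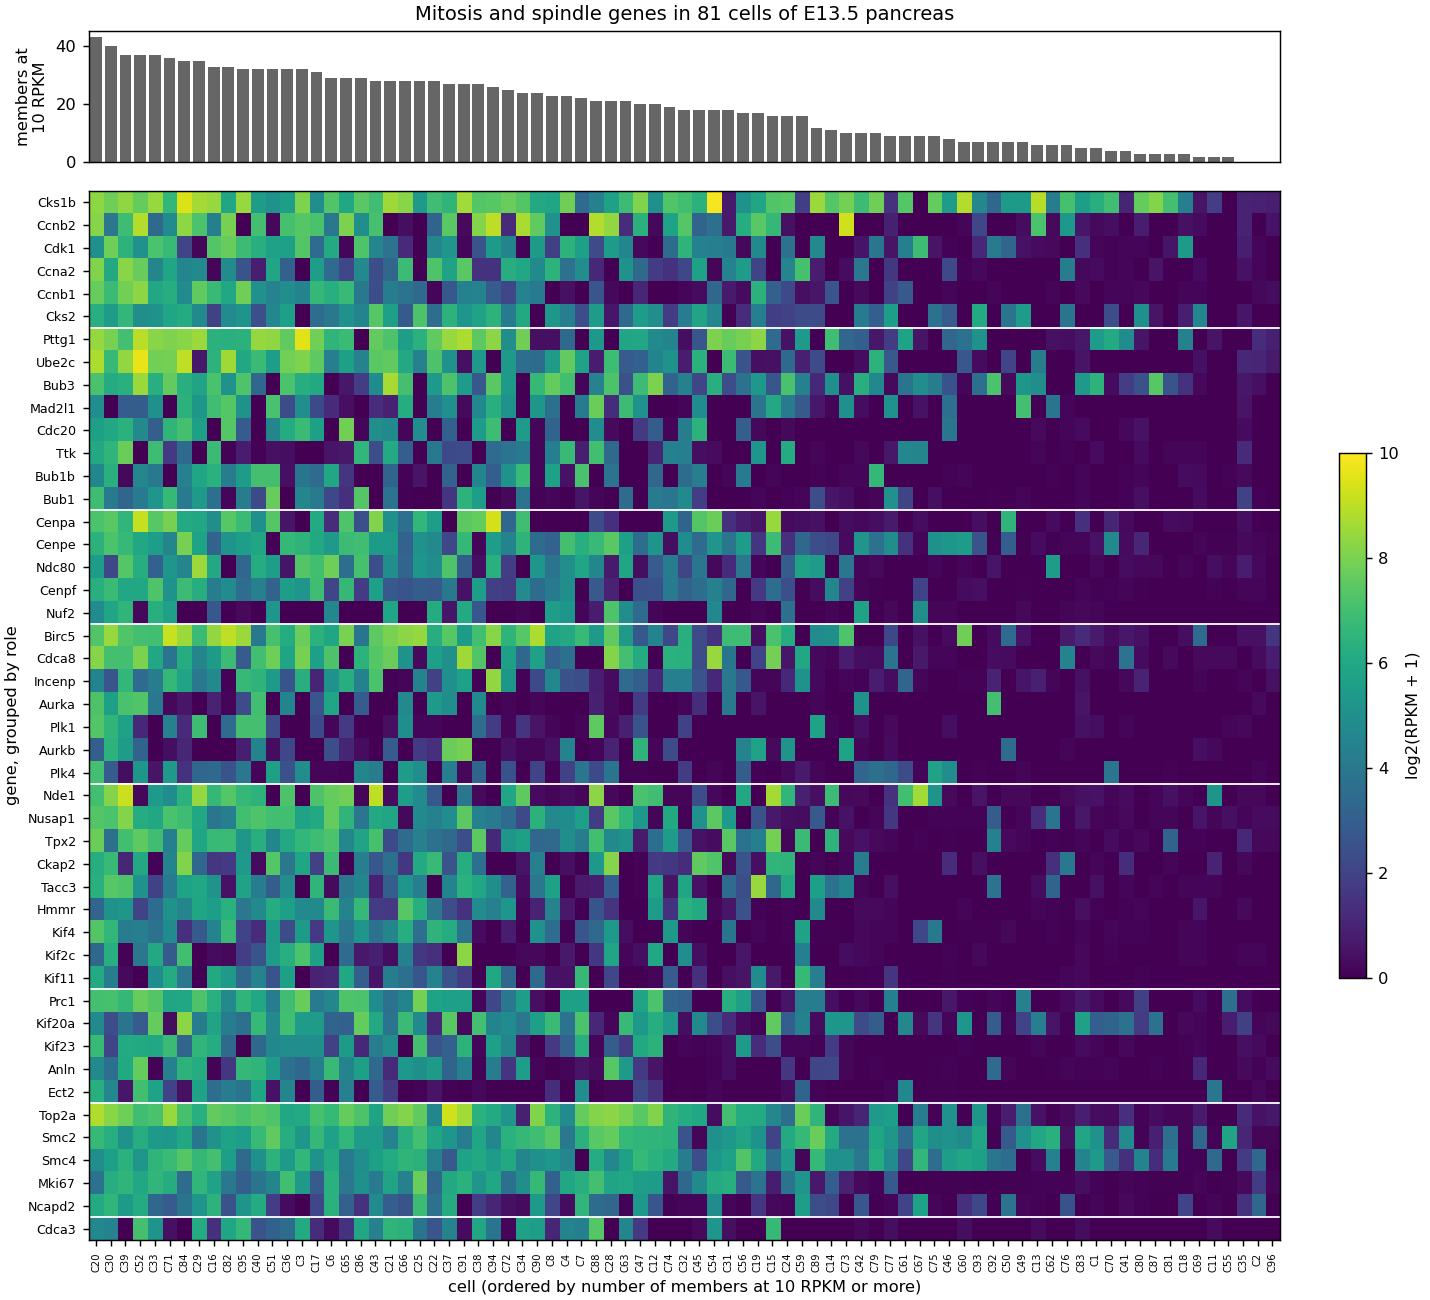
Level of each of the 46 genes (rows, by role) in each of the 81 cells (columns), as log2(RPKM + 1). Cells are ordered by the number of the 46 genes at 10 RPKM or more, which the bars above give and which runs from 43 in C20 to 0 in C2, C35 and C96; Cks1b, Smc2 and Smc4 stay bright far to the right, where most other rows are dark.

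Among the cyclins and their kinase, Cks1b, a small subunit of Cdk complexes that also serves the SCF ubiquitin ligase in G1 and S phase, had the highest mean of all 46 genes, 154.1 ± 165.1 RPKM (SD over 81 cells). It ran between 0 and 920.1 RPKM with a median of 119.6, and was present in 69 cells, the most of any member. Ccna2, the cyclin of S and G2 phase (mm9 chromosome 3, 36463787 to 36470918), ran between 0 and 295.0 RPKM with a median of 2.46 and was present in 31 cells. Ccnb1, the main mitotic cyclin (mm9 chromosome 13, 101548694 to 101556441), ran between 0 and 305.6 RPKM with a median of 0.535 and was present in 26. Ccnb2, the other B-type cyclin, was present in 36 cells and reached 622.2 RPKM in C73, a cell in which Ccnb1 and Cdc20 were both listed at 0. Cdk1, the kinase itself, was present in 40 cells, and Cks2 in 44.

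Of the 8 genes of anaphase and its checkpoint, Pttg1, which encodes securin, the inhibitor of separase, had the highest mean (106.3 ± 146.2 RPKM) and was present in 48 cells. Its highest value, 751.0 RPKM, was in C3, the shallowest cell. Ube2c, the ubiquitin-conjugating enzyme of the anaphase-promoting complex, ran between 0 and 811.6 RPKM with a median of 6.31. Cdc20, the activator of that complex (mm9 chromosome 4, 118105506 to 118109948), ran between 0 and 231.5 RPKM with a median of 0.134, and was present in 23 cells. The checkpoint genes Bub1, Bub1b, Mad2l1 and Ttk were present in 22, 24, 30 and 20 cells. Bub3, which also has roles outside mitosis, was present in 48.

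Chromosome structure genes were present in more cells. Smc2 and Smc4, the paired core subunits of both condensins, were present in 66 and 63 cells, and Smc2 was listed at 0 in none. Ncapd2, a subunit of condensin I alone, was present in 22. Top2a, the topoisomerase that untangles sister chromatids (mm9 chromosome 11, 98854261 to 98885503), ran between 0 and 614.3 RPKM with a median of 63.5 and was present in 54 cells. Mki67, the gene of the proliferation antigen Ki-67 that coats mitotic chromosomes, was present in 41.

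The Polo and Aurora kinase genes were present in 12 to 17 cells. Plk1, a kinase of mitotic entry and spindle assembly, and Aurkb, the kinase of the chromosomal passenger complex, were each present in 12 cells, the fewest of the 46 genes, and had medians of 0. Among the other genes of the passenger complex, Birc5 (survivin) was present in 49 cells at a mean of 99.3 ± 133.0 RPKM, Cdca8 (borealin) in 39 and Incenp in 27. Aurka, the centrosomal Aurora kinase, was present in 15 cells, and Plk4, the kinase of centriole duplication, in 17, at a mean of 8.17 ± 18.2 RPKM.

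The 5 kinetochore and centromere genes were present in between 19 cells (Nuf2, of the NDC80 complex) and 46 cells (Cenpe, a kinetochore motor). Ndc80, the name-giving subunit of that complex, was present in 32 and Cenpf in 28. Cenpa, the centromeric histone H3, had a median of 0.475 RPKM and a highest value of 652.3 in the shallow cell C94. Of the 9 motors and spindle proteins, Tpx2 (a spindle assembly factor) was present in 41 cells, Nusap1 in 40, Nde1 in 32, Tacc3 (a spindle microtubule protein) in 31 and Kif2c (a microtubule depolymerase) in 15. The spindle protein gene Hmmr was present in 28, the chromokinesin gene Kif4 in 27 and Ckap2 in 25. Kif11, the motor that separates spindle poles, was present in 18 at a mean of 10.8 ± 22.9 RPKM. Of the 5 cytokinesis genes, Kif20a was present in 42 cells, Prc1 (a bundler of midzone microtubules) in 39, Anln in 24, Kif23 in 23 and Ect2 (the activator of RhoA at the cleavage furrow) in 14. Of the 42 cells with Kif20a, 40 also had Cdc23, its overlapping neighbour, at 10 RPKM or more, and in 0 was Cdc23 under 1 RPKM. In 19 of the 42, Kif20a lay below Cdc23. Ect2 had the lowest mean of all 46 genes, 7.20 ± 19.6 RPKM, with a median of 0 and a highest value of 125.6. Cdca3, a trigger of mitotic entry, was present in 25 cells.

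The number of the 46 genes present in a cell ran between 0 (C2, C35 and C96) and 43 (C20), with a median of 18. At least 10 were present in 54 of 81 cells (66.7%, exact Clopper-Pearson 95% interval 55.3% to 76.8%, which covers counting error only). It was so in 32 of 40 cells with numbers up to 48 (80%, 64.4% to 90.9%) and in 22 of 41 with higher numbers (53.7%, 37.4% to 69.3%). The intervals overlap, which does not show that the shares agree. Among cells placed by mesenchymal markers, as described below, it was so in 23 of 29 (79.3%) and 16 of 34 (47.1%). All cells numbered up to 48 and those numbered higher had a median of 4291 and 3850 genes at 1 RPKM or more. Their medians of estimated reads were 3.62M and 3.52M. The part of genes and reads in the difference was not tested. The number present followed the estimated reads per cell with a Spearman rho of 0.29 over 81 cells, and the number of genes at 1 RPKM or more with a rho of 0.51, a count that includes the members themselves.

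At 10 RPKM, every cell with a late gene also had an early one. Both early genes (Ccna2 and Top2a) were present in 28 cells (34.6%, 24.3% to 46%), both late genes (Cdc20 and Ccnb1) in 16 (19.8%, 11.7% to 30.1%), and all 4 in 10 (12.3%, 6.08% to 21.5%). Of the 57 cells with at least 1 early gene, 33 had at least 1 late gene (57.9%, 44.1% to 70.9%). Of the 24 cells with no early gene, 0 had a late one, which allows a share of up to 12.5%.

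That order held at 20 RPKM (0 of 28 cells) and without the 4 shallow cells (0 of 23), but not lower down. At 1 RPKM 3 of 22 cells had a late gene and no early one, and at 5 RPKM 3 of 24. In both cases these were C14, C54 and C61. C61 is shallow, and its Ccnb1 of 5.98 RPKM lay under the 13.8 RPKM of 1 read on a 1 kb transcript. Medians over all cells were 63.5 RPKM for Top2a, 2.46 for Ccna2, 0.134 for Cdc20 and 0.535 for Ccnb1. The part of these levels in the order at a fixed threshold was not tested. Of the 33 cells with a late gene, 32 had Top2a and 18 had Ccna2. Top2a was present without Ccna2 in 26 cells, and Ccna2 without Top2a in 3. Ccnb1 was present without Cdc20 in 10 cells, and Cdc20 without Ccnb1 in 7. Of the 31 cells with Ccna2, 22 also had Exosc9, its overlapping neighbour, at 10 RPKM or more, and in 5 Exosc9 was under 1 RPKM.

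**Figure D2:**
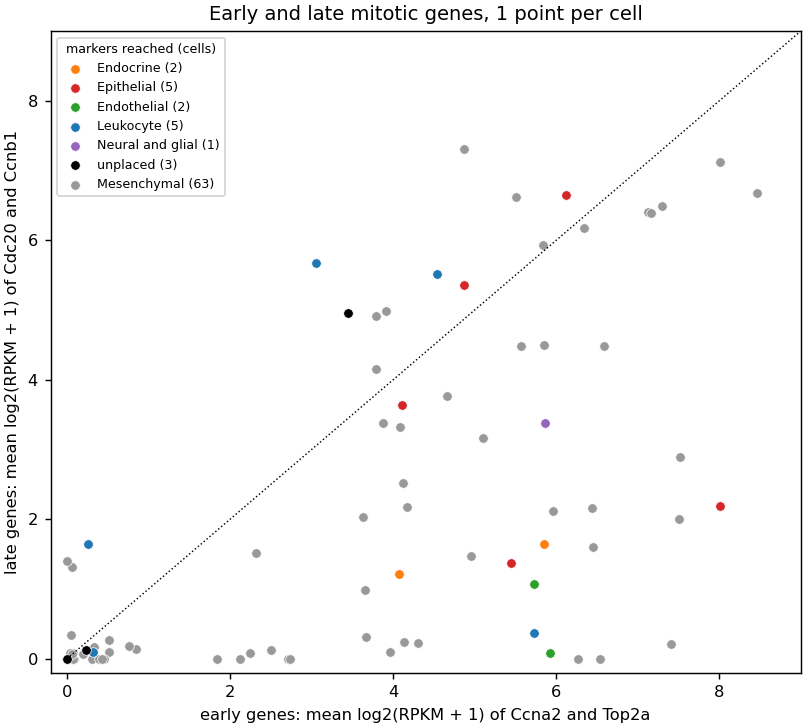
Mean log2(RPKM + 1) of the late genes (Cdc20, Ccnb1; vertical axis) against that of the early genes (Ccna2, Top2a; horizontal axis), 1 point per cell, coloured by marker list; on the dotted line both means are equal. The lower right holds cells with early levels and little of the late genes, and no cell pairs high late levels with early levels near 0 (Spearman rho 0.62 over 81 cells).

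On the log2(RPKM + 1) scale, the mean of the early genes and the mean of the late genes followed each other over the 81 cells with a Spearman rho of 0.62 and a Pearson r of 0.61. The late mean minus the early mean had a median of -0.78 over the cells, which a pseudocount of 0.1 RPKM in place of 1 made -1.53. The rho was 0.49 in the 40 cells numbered 1 to 48, 0.61 in the 41 cells numbered 49 to 96, and 0.64 in the 77 deeper cells. These are descriptions: the points share 1 preparation, and both means come from the same libraries and depth.

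The remaining 42 genes were then set against these 4. The cells fell into 24 with no early or late gene, 24 with an early gene and no late gene, 17 with an early and 1 late gene, and 16 with an early gene and both late genes. The median number of the other 42 genes present was 4.5 (range 0 to 18), 15.5 (5 to 26), 25 (6 to 34) and 29 (21 to 39) in that order. All 42 were present in a larger share of the last set than of the first, as were 48.6% of all 13237 genes compared. For 30 of the 42 (71.4%) the share was larger in each next set, against 4.93% of all genes. Median estimated reads were 3.08M, 3.59M, 4.01M and 4.01M in the same order. The first set held 8 of the 40 cells numbered up to 48 and 16 of the 41 numbered higher. The last set held 10 and 6 of them. The part of depth and of cell number in these counts was not tested.

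The genes differed in the sets in which they reached 10 RPKM. Cks1b was present in 16 of 24, 20 of 24, 17 of 17 and 16 of 16 cells, and Smc2 in 13, 22, 15 and 16, so both were common even where no early or late gene was present. Birc5 was present in 5, 14, 14 and 16 cells. Cenpf, a kinetochore protein of G2 and M phase, was present in 2, 5, 7 and 14, and Cenpa in 2, 3, 10 and 14. Plk1 was present in 0, 1, 4 and 7 cells, and the checkpoint kinase gene Bub1 in 0, 4, 6 and 12. Aurkb did not follow the order, with 2, 5, 3 and 2 cells, nor did Nuf2, with 1, 9, 3 and 6. Over the 81 cells Cks1b and Smc2 had means of 154.1 and 54.5 RPKM, and Cenpf, Bub1 and Plk1 of 17.7, 13.3 and 12.6. The part of a gene's level against a fixed threshold was not tested.

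**Figure D3:**
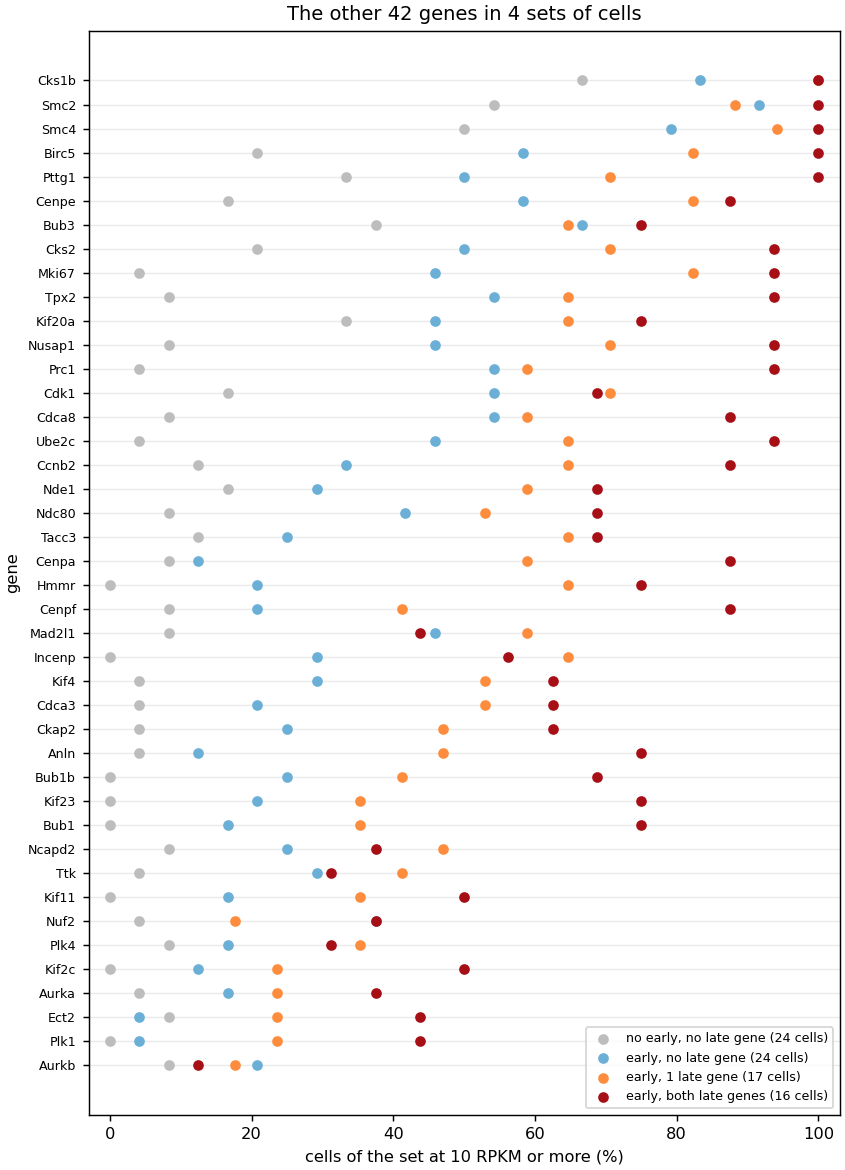
Share of cells (%) in which each of the other 42 genes reached 10 RPKM, in the 4 sets of cells by early and late genes (24, 24, 17 and 16 cells). Each point is 1 set. Cks1b and Smc2 lie above 50% in every set, and for Plk1, Bub1 and Cenpf the set with both late genes lies to the right of the others.

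G1/S and replication genes ran differently over the same sets. Of 25 such genes, a median of 6.5, 13.5, 10 and 9 were present, highest in the set with an early gene and no late gene. Of 54 further mitosis genes outside the 46, the medians were 2, 13, 18 and 23.

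The 10 cells with both early and both late genes were then compared with the 18 cells that had both early genes but at most 1 late gene. Of these 18, 11 had no late gene and 7 had 1, which was Ccnb1 in 6 and Cdc20 in 1. The 10 cells with both late genes held more transcript for most of the other 42 genes than the 18 cells with at most 1. The mean log2(RPKM + 1) was higher by at least 1 in 30 of the 42 and lower by at least 1 in 0, with a median difference of 1.84. Across all 13237 genes, 8.54% lay higher and 5.39% lower by that much, and their median difference was -0.00. Against the 11 cells with no late gene alone, 32 of the 42 were higher by at least 1 and 0 lower, with a median of 1.88. The shares of all genes against those 11 cells are not given here. Estimated reads had a median of 3.99M in cells with both late genes and 3.68M in cells with at most 1 late gene, and genes at 1 RPKM or more a median of 4642.5 and 4084.5; none of the 28 cells is shallow.

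Cenpa differed most. It lay between 63.6 and 548.6 RPKM with a median of 152 in the 10 cells with both late genes, and between 0 and 179.7 with a median of 1.08 in the 18 cells with at most 1 late gene, a log2 difference of 4.83. It was thus present in all 10 cells with both late genes and in 5 of the 18 with at most 1 late gene, and the ranges overlapped. Plk1 ran between 1.24 and 160.1 RPKM (median 14.9) in cells with both late genes and between 0 and 30.6 (median 0) in cells with at most 1 late gene, a difference of 3.73. Plk1 was at 10 RPKM or more in 6 of the 10 cells with both late genes, against 1 of the 18 with at most 1 late gene.

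Ccnb2 ran between 0.17 and 463.4 RPKM (median 141.0) in cells with both late genes and between 0 and 185.8 (median 4.68) in cells with at most 1 late gene, a difference of 3.61. Cenpf differed by 3.33, Pttg1 by 3.28, Nde1 (a dynein regulator) by 3.21 and Bub1 by 3.02. The cytokinesis genes Anln (an actin and septin scaffold), Kif23 (a centralspindlin motor) and Ect2 differed by 2.81, 2.58 and 2.52. Differences were close to 0 for Smc2 (0.38), Aurkb (0.06), the checkpoint kinase gene Ttk (-0.07) and Mki67 (-0.13). Kif20a, a midzone kinesin, differed by -0.49; reads in the exons it shares with Cdc23 cannot be told apart.

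**Figure D4:**
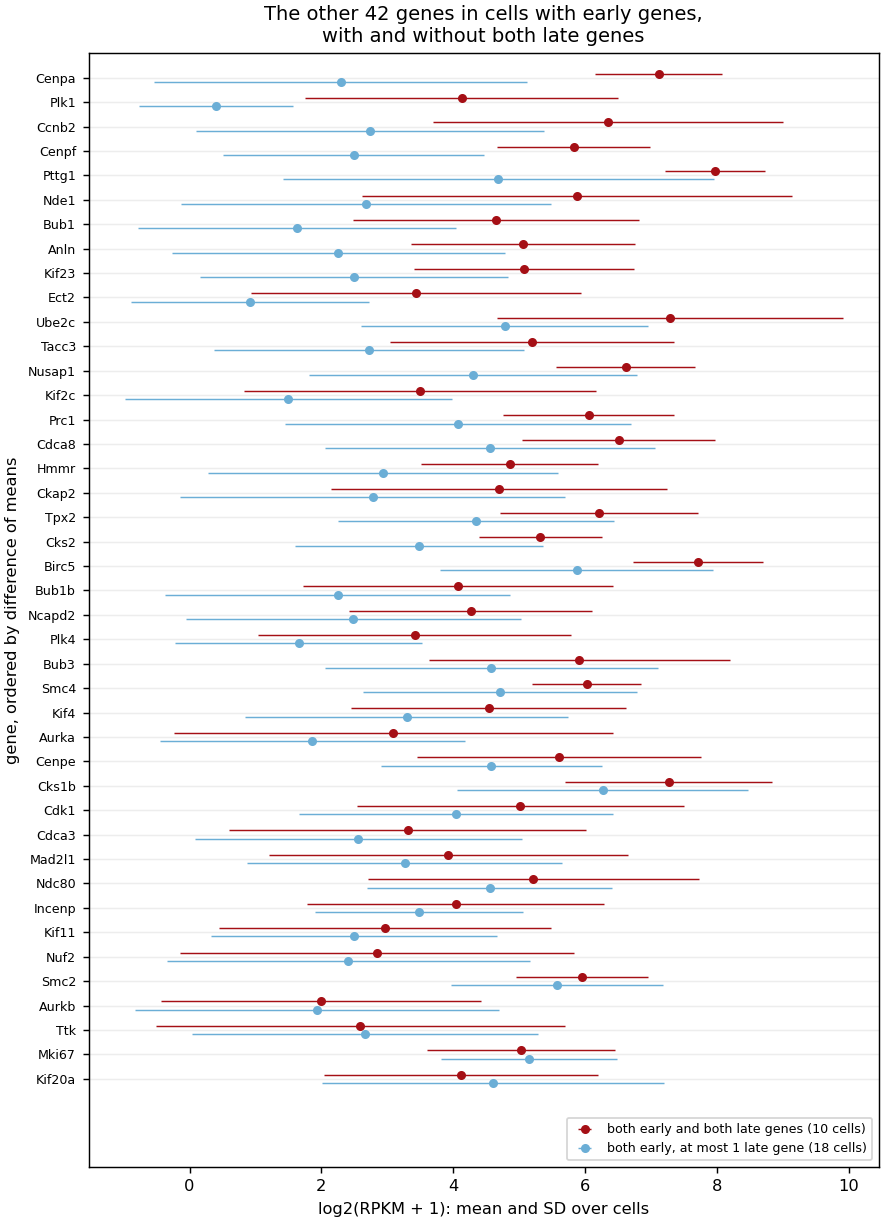
Mean and SD over cells of log2(RPKM + 1) for the other 42 genes in 10 cells with both early and both late genes (red, upper of each pair) and 18 cells with both early genes and at most 1 late gene (blue), ordered by the difference of the means. Cenpa, Plk1 and Ccnb2 lie furthest apart, and the SDs overlap for most genes.

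Outside the 46 genes, 22 of 54 further mitosis genes were higher by at least 1 in cells with both late genes and 2 lower (median 0.87). Among 25 G1/S and replication genes, 2 lay higher and 8 lower (median -0.26). The non-members with the largest positive differences included Cdc25c, the phosphatase that activates Cdk1 (median 45.4 RPKM in cells with both late genes and 0.457 in cells with at most 1 late gene, difference 3.38). They also included Arl6ip1 (498.3 and 55 RPKM, difference 3.29) and the beta-tubulin genes Tubb6 (3.15) and Tubb4b (2.88). Mir763 (3.59) and Nat10 (3.40) differed most, and Psmd10 (3.12) and Sec11a (3.10) were also among the 10 largest. Of those 10, only Cdc25c was on the list of further mitosis genes. The largest negative ones included Lxn (-3.28), Snora31 (-2.93), Acaa2 (-2.91) and Zfp655 (-2.66). Among them were also Tipin, a replication fork protein (6.12 and 92.9 RPKM, difference -2.90), and the histone gene Hist1h4d (-2.50).

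The 46 genes followed each other loosely, cell by cell. Spearman's rho on the log2 scale over the 81 cells was above 0 in all but 2 of the 1035 pairs, with a median of 0.39 and a range of -0.00 to 0.76. Pairs within a role had a median of 0.38 (130 pairs) and pairs across roles 0.40 (905 pairs). The closest pairs were Top2a with Mki67 (0.76), Mki67 with Nusap1, a spindle microtubule protein (0.74), and Ccnb1 with Pttg1 (0.73). Against the mean of the other 45 genes, Cenpf (0.80), Ccnb1 (0.79) and Top2a (0.78) had the highest rho, and Nuf2 (0.37), Cks1b (0.40), Nde1 (0.43) and Aurkb (0.43) the lowest. All points share the libraries and their depth, so no p-value is given.

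Other genes were ranked by how closely they followed the 46. The ranking took 6244 other genes at 1 RPKM or more in at least 20 cells. Those with the highest rho with the mean of the 46 included Ckap2l (0.76), Kif20b (0.75) and Casc5 (0.72). Next came Kpna2, Tuba1b, Kif22 and Spc25 (each 0.70), and Sgol1 and Tubb4b (each 0.69). Kpna2 was low, with a mean of 2.08 RPKM and 4 cells at 10 RPKM or more, so its rho rests mostly on low values. Among 40 genes at a rho of 0.5 or more, 19 were further mitosis genes, out of 37 ranked, and 0 were G1/S genes, out of 22 ranked.

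Further mitosis genes thus tracked the 46 in count as well. Per cell, the number present followed the number of the 46 present with a rho of 0.90 over 81 cells. The rho was 0.22 for G1/S and replication genes and 0.08 for G1 cyclins and Cdk inhibitors. These counts are over 54, 25 and 6 genes, and a count over few genes has less room to vary. Of the 6, Cdkn1c was present in 81 cells and Cdkn1a in 1. All 54 further mitosis genes were present in a larger share of the 54 cells with at least 10 of the 46 genes than of the other 27 cells, as were 56.1% of all 13237 genes. In 21 of the 54 genes, 0 of those 27 cells reached 10 RPKM, against 17.3% of the 12295 genes that did so in at least 1 cell of the 81. Some of the 21 are rare throughout: they were present in 1 to 31 cells in all, with a median of 14. Examples are Aspm (a spindle pole protein), present in 16 of the 54 cells with at least 10, and Ckap2l, in 31.

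G1/S and replication genes stood near the share of all genes. Of the 25, 14 were present in a larger share of the 54 cells with at least 10 of the 46 genes than of the other 27. So were 56.1% of all 13237 genes. The median share of the 25 was 50% in the 54 cells and 33.3% in the 27. Tyms, which makes thymidylate for DNA synthesis, was present in 39 of the 54 and 7 of the 27, Rrm1, a subunit of ribonucleotide reductase, in 39 and 9, and Rfc4, of the clamp loader, in 29 and 5. Mcm4, a subunit of the replicative helicase, was present in 45 of the 54 and in 24 of the 27, and Pcna, the sliding clamp, in 37 and 19. Among the 6 G1 cyclins and Cdk inhibitors, Ccnd2 was present in 45 and 24. Cdkn1c, the Cdk inhibitor p57, was present in 54 of 54 and in 27 of 27, with a median of 1616 RPKM over all cells.

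Cells of every marker list that placed a cell carried the genes. The erythroid and mesothelial lists placed none. A cell was placed by at least 3 markers of a list at 10 RPKM or more; this names the list, not a cell type. Any other list went before the mesenchymal one, and the endocrine before the epithelial. Of the mesenchymal markers, Col1a2 and Col3a1 were each at 10 RPKM or more in 77 of the 81 cells, and Pdgfrb in 52. Col1a2 and Col3a1 thus did little to tell cells apart. Of the 81 cells, 63 were placed by mesenchymal markers (such as Col1a2, Col3a1 and Pdgfrb), 5 by epithelial (such as Epcam and Cdh1), 5 by leukocyte, 2 by endocrine and 2 by endothelial markers, 1 by neural and glial markers, and 3 by none. Of the 15 cells placed by other lists, 11 also had at least 3 mesenchymal markers, among them 3 of the 5 epithelial-marker cells (C47, C91 and C95) and 4 of the 5 leukocyte-marker cells; whether these hold RNA of more than 1 cell was not tested. At least 10 of the 46 genes were present in 5 of 5 epithelial-marker cells (100%, 47.8% to 100%) and in 4 of 5 leukocyte-marker cells. They were present in 39 of 63 mesenchymal-marker cells (61.9%, 48.8% to 73.9%). The intervals overlap, which does not show that the shares agree.

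Epithelial-marker cells had a median of 28 genes present (range 20 to 33), against 17 (0 to 43) in mesenchymal-marker cells. Mean levels were higher by at least 1 log2 unit in the epithelial-marker cells for 33 of 46 genes and lower for 1 (Ndc80, -1.01), with a median difference of 1.54. Across all genes, 18.1% lay higher and 5.85% lower by that much. Without the shallow cells, C43 among them, the counts were 30 and 1, against 18.8% and 7.38% of all genes. With C43 and C82 alone, the epithelial-marker cells short of 3 mesenchymal markers, they were 32 and 6. The latter rest on means of 2 cells, and the shares of all genes beside them are not given here. Nde1 differed most: it was at 532.1, 139.7, 162.2, 14 and 100.8 RPKM in C43, C47, C82, C91 and C95, a mean log2 level of 6.82 ± 1.86, against 2.57 ± 3.32 in 63 mesenchymal-marker cells. Cenpa differed by 3.44, Cdca8 by 3.36, Nusap1 by 3.10 and Pttg1 by 2.99. Of 25 G1/S genes, 3 were higher and 6 lower. Estimated reads had a median of 4.54M in the epithelial-marker cells and 3.52M in the mesenchymal-marker cells, and the part of depth was not tested.

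The epithelial-marker cells differed among themselves. C82 had both late genes, with Cdc20 at 163.8 and Ccnb1 at 60.5 RPKM, and also Ube2c at 384.8 and Cdk1 at 201.9. C95 had Ccnb1 at 225.3 and Plk1 at 130.8 RPKM but Cdc20 at 6.53. C91, the only cell with Neurog3 (the factor that starts endocrine differentiation) at 10 RPKM or more, held the highest value of all 81 cells for Aurkb (244.3 RPKM), Kif2c (306.8) and Cdca8 (384.8), with Top2a at 387.5 and Cdc20 at 0. In the shallow cell C43 Cks2 had its highest value, 164.7 RPKM.

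Both endocrine-marker cells, C24 and C56, had early genes and no late gene. In C24, Ccna2 stood at 22.4 RPKM, Top2a at 11.1, Cdc20 at 0.161 and Ccnb1 at 3.62. In C56, Ccna2 stood at 45.7 RPKM, Top2a at 70.8, Cdc20 at 7.18 and Ccnb1 at 0.209. They had 16 and 17 of the 46 genes present. Set against the 5 epithelial-marker cells, 31 of the 46 genes were lower by at least 1 and 5 higher (median -1.88), where 21.1% of all genes were lower and 21% higher. Cdca8 (-6.07), Nusap1 (-5.83) and Cenpa (-5.43) differed most, while 11 of 25 G1/S genes were higher and 4 lower. With 2 cells against 5, these values describe those cells only.

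**Figure D5:**
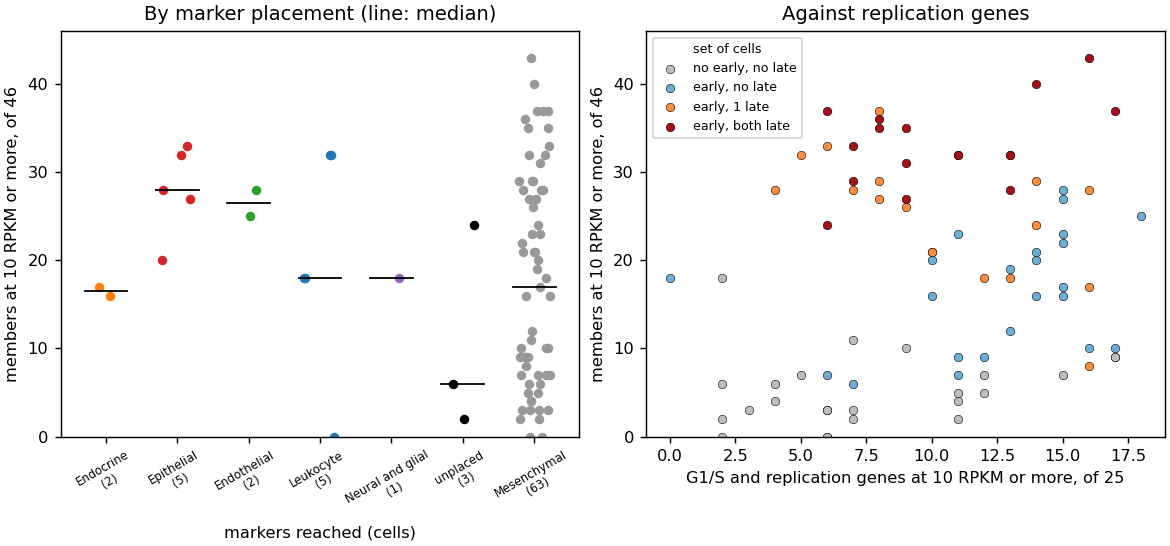
Left, number of the 46 genes at 10 RPKM or more per cell, by marker list, with the median as a line; right, the same number against that of 25 G1/S and replication genes, coloured by the set of early and late genes. Each point is 1 cell; the 5 epithelial-marker cells lie between 20 and 33 genes, mesenchymal-marker cells between 0 and 43, and the right panel shows no close relation (Spearman rho 0.22).

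Leukocyte-marker cells had a median of 18 genes present (range 0 to 32), against 17 in mesenchymal-marker cells. Mean levels were higher by at least 1 for 12 of the 46 genes and lower for 4, with a median difference of 0.16; across all genes 11.2% lay higher and 13% lower. Pttg1 (2.78), Mki67 (2.40), Cdca8 (2.27) and Nusap1 (2.26) were the furthest above, and Ttk (-1.65) the furthest below. Among 25 G1/S genes, 0 lay higher and 17 lower by that much. Of these 5 cells, 1 is C3, the shallowest. Without it and the other shallow cells, 5 of the 46 genes lay higher and 8 lower (median -0.19), against 12.5% and 14.6% of all genes, and 18 of the 25 G1/S genes lay lower.

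Index sequences tell the pooled libraries apart, and several libraries carry the same first or second index. Libraries that share an index with the cell of highest level were compared with those that share none, over all 46 genes. Of 681 values in cells sharing an index, 26.1% lay above 0 and below 1 RPKM and 40.8% at 10 RPKM or more. Of 2999 values in cells sharing none, the shares were 21% and 39%.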

How the data were processed

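Single-cell mRNA libraries of 81 cells were analysed. Reads were processed with CASAVA 1.8.2 and mm9, per the submitters' processing notes. Which aligner and counter were used, and whether strand was, is not given in the sources used here. Deposited by the authors was 1 table of 29510 transcript rows with a column for each cell. Its unit is not stated; the deposited values were taken as RPKM because value times transcript length falls on multiples of 1 read, and that step gave each cell's estimated reads (0.0198M to 5.40M). Each gene takes its row of highest mean; the 46 genes have 60 rows, and 9 genes have more than 1. Levels were compared on log2(RPKM + 1), a scale that understates differences of low genes. Differences were computed over all 13237 genes above 0 in at least 3 cells, which include all 46.

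The members, gene lists, markers and thresholds were chosen with earlier results of these data known. Values in full are given for Ccna2, Top2a, Cdc20, Ccnb1, the 3 genes of highest and of lowest mean, and at least 1 per role. Non-members named are a part of the 10 most alike in rho and of the 10 largest differences in each direction; 1 gene is not reported here. Other cell values were chosen after they were seen.

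Cells are not replicates, and reads carry no molecular identifiers, so intervals and limits (3 counts for a count of 0) cover counting error only. No doublet caller was run on 81 cells. Lengths, overlaps and shared 50-base windows came from GENCODE vM21 transcripts. Calculations used Python 3.11.15, pandas 2.3.3 and scipy 1.17.1, and the estimate of reads and the differences were tested on simulated data.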

Additional observations from a re-analysis of the deposited data

How the results depend on the processing

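Of 79 alternative values, 73 stayed within the range set for them or within 1.5 times the count, and 0 reversed. For the median late minus early level, -0.78, that range was the SD of 2.22 over cells. This SD is a spread of single cells and not the error of a median. The 6 alternatives of that median all count among the 73, which therefore does not show that the median was stable. That median became -1.53 with a pseudocount of 0.1 RPKM and -1.14 with cells rescaled to equal totals. The share of cells with both early genes, 34.6%, became 54.3% at a threshold of 1 RPKM and 46.9% with cells rescaled to equal totals. With a pseudocount of 10 RPKM, the genes higher by at least 1 numbered 18 in cells with both late genes (30 at a pseudocount of 1) and 13 in epithelial-marker cells (33 at a pseudocount of 1). The share of cells with at least 10 genes present, 66.7%, became 85.2% for at least 5 genes and 48.1% for at least 20. The rho of early with late means stayed between 0.61 and 0.64. A further 3 alternatives were chosen after seeing the data. Leaving out C91, or the epithelial-marker cells with at least 3 mesenchymal markers, each gave 32 genes higher in epithelial-marker cells. Comparing with cells that had no late gene gave 32 higher in cells with both late genes. For these 3, and for the pseudocount of 10 RPKM, the shares of all genes are not given here. The cause of these changes was not tested.

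No paired analysis was possible because the labels give 1 group and no replicate numbers that pair cells. Depth limits the 4 shallow cells: in C3 and C61, 1 read on a 1 kb transcript exceeds 10 RPKM, and values of 0 in all 4 limit little. Without them the median difference of leukocyte-marker from mesenchymal-marker cells turned to -0.19, against 0.16 with them. With 1 sample, nothing here measures variation between embryos.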
